A study of Homo sapiens with 9 samples.

Results

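In MM1S cells, 114 of the 58387 genes in the deposited gene table were raised when PHF19 was knocked down and were still raised when PHF19 was put back. A gene was taken when each of its values in the 3 PHF19-KD and 2 KD_Rescued libraries was at least 2 times its highest value in the 3 shEV libraries and at least 3 CPM (counts per 1000000 counts of the library). Genes that met these thresholds numbered 124, and 10 of them were set aside by their symbols: 5 mitochondrially encoded RNAs, 2 HLA genes and the interferon-induced genes IFI6, MX1 and XAF1. The members were thus chosen by their measured levels in PHF19-KD and KD_Rescued against shEV, and their folds over shEV are given as a description with no test. Of all genes, 10970 had at least 3 CPM in every PHF19-KD and KD_Rescued library.

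MM1S is an established human line from multiple myeloma, a cancer of plasma cells. The cells stably carried a lentiviral empty vector (shEV), a lentiviral short hairpin against PHF19 (PHF19-KD), or that hairpin together with PHF19 that the hairpin cannot target (KD_Rescued). RNA-seq of cells kept in ordinary medium gave 3 shEV, 3 PHF19-KD and 2 KD_Rescued libraries, plus 1 library whose title calls it PHF19-KD replicate 4 and whose hairpin label calls it the resistant PHF19. The labels do not say whether replicates were separate cultures, so the p-values cover only the spread from library to library, and that spread may be technical.

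PHF19 associates with the Polycomb repressive complex PRC2, which methylates lysine 27 of histone H3 at repressed genes. It reads methylated histone tails and helps bring the complex to chromatin. Genes that PRC2 keeps silent can be switched on when the complex is lost, and a re-expressed subunit may or may not silence them again. The members include noncoding RNAs that stay in the nucleus, interferon and cytokine genes, sterol exporters and genes of the splicing machinery.

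PHF19 itself measured 120, 120 and 103 CPM in shEV, 26.3, 27.7 and 27.5 CPM in PHF19-KD and 224 and 219 CPM in KD_Rescued, so the rescued cells held more PHF19 RNA than the control. The library with disagreeing labels held 63.5 CPM, between the knockdown and the control, and entered no group. Libraries held 10609800 to 12024900 counts in PHF19-KD, 16974700 to 22739700 in shEV and 23644100 to 23751400 in KD_Rescued. Mitochondrially encoded RNA took 2.84 to 3.32% of counts in shEV, 9.02 to 10.0% in PHF19-KD and 4.99 to 5.18% in KD_Rescued. Replicate 3 of shEV stood apart from the other shEV libraries, with a chi-square per degree of freedom of 8.14 and 9.15 against them, where every other replicate pair of a group gave 1.37 to 2.25. The KD_Rescued libraries were run in lane 2 and all others in lane 6, and sequencing lane cannot be told apart from rescue here. Plasma cell markers summed to 10313 to 11689 CPM in shEV, 7108 to 7232 in PHF19-KD and 9888 to 10002 in KD_Rescued. B cell markers summed to 16 to 18.3, 18.0 to 19.8 and 10.7 to 11.1 CPM in the same order, monocyte markers to 20.3 to 22.6, 26.9 to 31.5 and 9.84 to 10.7, and erythroid markers to 49.8 to 53.4, 12.4 to 14.2 and 60.4 to 61.7. Fibroblast markers summed to 2.46 to 2.70, 9.94 to 10.7 and 0.973 to 1.56 CPM, epithelial markers to 0.277 to 0.894, 0.764 to 1.36 and 0.379 to 0.472, and T and NK cell markers to 1.70 to 2.42, 1.6 to 2.16 and 2.45 to 2.61. Of 36 tested DNA replication and mitosis genes, all 36 were lower in PHF19-KD than in shEV (median log2 -3.07) and all 36 were higher in KD_Rescued than in PHF19-KD. The part of these differences between the groups in the members' values was not tested.

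Start sites were matched for 62 of the 95 members with a gene name in a RefSeq table of GRCh38.p14 promoters, which run from 250 bases before to 50 bases after the start. Promoters of 3 immune members are shown because each holds a match to letters from the core of a site that interferon or NF-kB factors are known to bind. They were thus picked for their matches. The immune members TRAF1 and IL11RA also had a matched promoter, which held none of the letters searched, and these are not shown. IFI44 is at chr1:78649539-78649838 (+ strand), and the capitals mark a match to 9 letters of the interferon-stimulated response element, GAAANNGAA, read on the other strand, 17 to 9 bases before the start. IRF9 is at chr14:24161015-24161314 (+ strand), and the capitals mark the gamma-activated site core TTCNNNGAA, 63 to 55 bases before the start, a core that reads the same on both strands. IL32 is at chr16:3065153-3065452 (+ strand), and the capitals mark 9 letters of the kB site, GGNNTTTCC, 98 to 90 and 68 to 60 bases before the start.
IFI44: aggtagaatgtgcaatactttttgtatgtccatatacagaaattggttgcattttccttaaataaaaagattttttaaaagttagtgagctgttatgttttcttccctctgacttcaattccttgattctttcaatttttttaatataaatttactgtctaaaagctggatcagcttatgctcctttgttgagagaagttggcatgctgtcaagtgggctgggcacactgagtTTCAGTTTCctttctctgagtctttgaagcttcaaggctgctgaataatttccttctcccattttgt
IRF9: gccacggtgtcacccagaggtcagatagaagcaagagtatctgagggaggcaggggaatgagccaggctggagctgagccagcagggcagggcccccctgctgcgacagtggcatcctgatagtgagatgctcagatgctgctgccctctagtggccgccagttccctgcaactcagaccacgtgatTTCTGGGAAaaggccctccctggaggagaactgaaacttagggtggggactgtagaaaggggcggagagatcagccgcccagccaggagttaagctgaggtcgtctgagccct
IL32: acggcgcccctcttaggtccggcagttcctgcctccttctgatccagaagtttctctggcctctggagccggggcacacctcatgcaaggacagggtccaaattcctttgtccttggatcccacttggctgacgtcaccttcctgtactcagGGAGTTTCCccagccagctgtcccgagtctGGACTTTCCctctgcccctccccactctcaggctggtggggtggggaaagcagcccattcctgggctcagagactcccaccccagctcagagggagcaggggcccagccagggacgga
Searched on both strands, the response element letters were in 8.29% of all 27305 promoters and in 3 of the 62 matched members, H6PD, IFI44 and LINC01355. The gamma-activated core was in 7.88% of all promoters and in 5 members, MAN2C1, IRF9, CBLN3, LINC01355 and LIX1L. The kB letters were in 6.26% of all promoters and in 3 members, ACCS, SYTL1 and IL32. The letters TATAAA were in 11.95% of all promoters and in 6 members. Each match is a description of the letters in that window. The 62 promoters cover only part of the 95 named members, and the 27305 were not limited to expressed genes. The shares therefore show nothing particular to the members. The promoters of MX2 and DHX58 were not used here.

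The members together took 0.148, 0.135 and 0.136% of all counts in shEV, 0.558, 0.513 and 0.536% in PHF19-KD, and 0.426 and 0.432% in KD_Rescued. Their fold over shEV had a median of 3.64 in PHF19-KD (2.17 to 34.4) and 2.96 in KD_Rescued (2.07 to 38.5). In the edgeR quasi-likelihood fit across 16600 genes, all 114 members were tested. Among all genes tested, 34.9% were higher and 34.2% lower in PHF19-KD than in shEV, and 20.7% were higher and 19.1% lower in KD_Rescued than in shEV. The knockdown and rescue comparisons share the shEV libraries. At the fold threshold, ZNF276 (2.0), CTD-2020K17.1 (2.01), ATG16L2 (2.01) and PECAM1 (2.01) lay just inside by their lowest value over the highest shEV value. PARP9 (1.99), CTD-3184A7.4 (1.99), LENG8 (1.97) and MIR22HG (1.97) lay just outside. At the CPM threshold, NFATC4 (3.20 CPM) and LMNTD2 (3.24 CPM) were the lowest members, and KB-1572G7.2 (2.94 CPM) and IFITM1 (2.94 CPM) were left out.

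**Figure D1:**
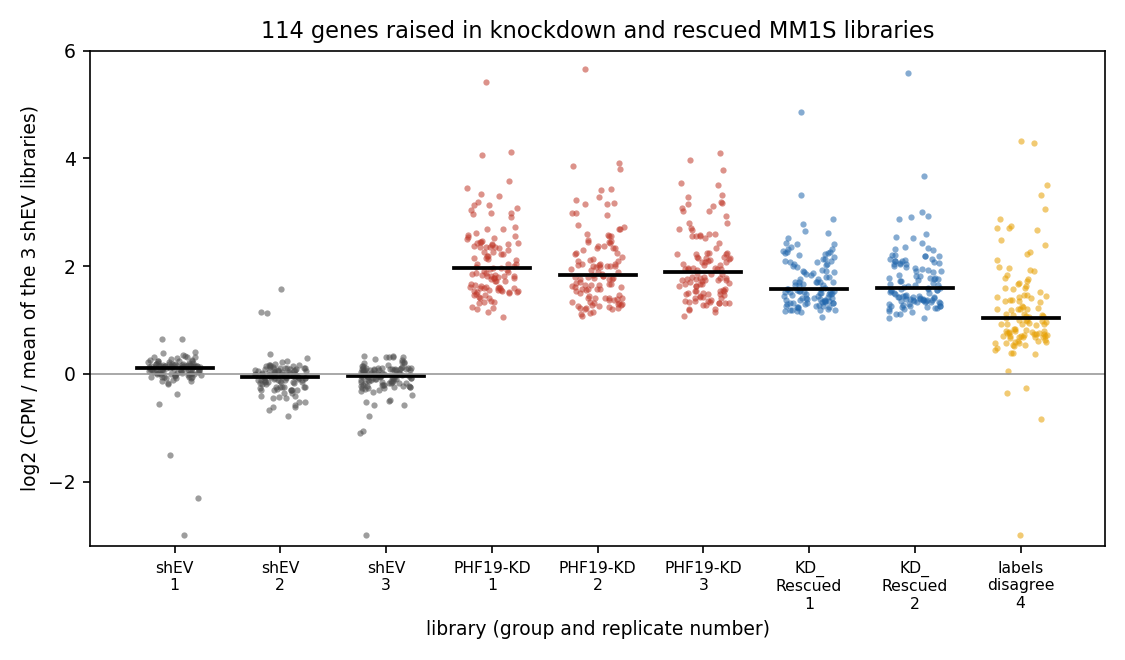
Each point is 1 of the 114 members in 1 library, as log2 of its CPM over its mean in the 3 shEV libraries, and black lines are medians; values of 0 or below -3 are drawn at -3. The PHF19-KD libraries sit highest, the KD_Rescued libraries slightly lower, and the library with disagreeing labels lies between them and shEV for most members.

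The choice of members set no threshold on KD_Rescued against PHF19-KD, a comparison that asks whether restored PHF19 moved these genes toward the control. It did use the values of both groups, so a gene that the knockdown lowered and the rescue raised could not be a member, and the counts of falls and rises over the members are a description. In the edgeR fit 50 members fell (43.9%), against 29.5% of all genes tested, and 13 rose (11.4%), against 33.9% of all genes. The other 51 did not pass an adjusted p of 0.05 (edgeR, Benjamini-Hochberg over all genes). The median difference was -0.24 on the log2 scale, beside 0.03 for all genes. All values of KD_Rescued were below all values of PHF19-KD for 59 members, above them for 20, and overlapped them for 35. The same counts were not made over all genes, so they show nothing particular to the members. The share of the rise over shEV that was still present in KD_Rescued had a median of 78.8% and ran from 13.3 to 242%. The thresholds also set a floor under how far a member could fall. Another scaling, by upper quartiles, moved the median of all genes from 0.03 to -0.12 and gave 60 members lower and 7 higher. Of the 63 calls, 44 (37 falls and 7 rises) held under all 15 alternative fits that leave the library with disagreeing labels out. With that library counted as PHF19-KD, 25 members fell and 5 rose, and with it counted as KD_Rescued, 42 fell and 0 rose.

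**Figure D2:**
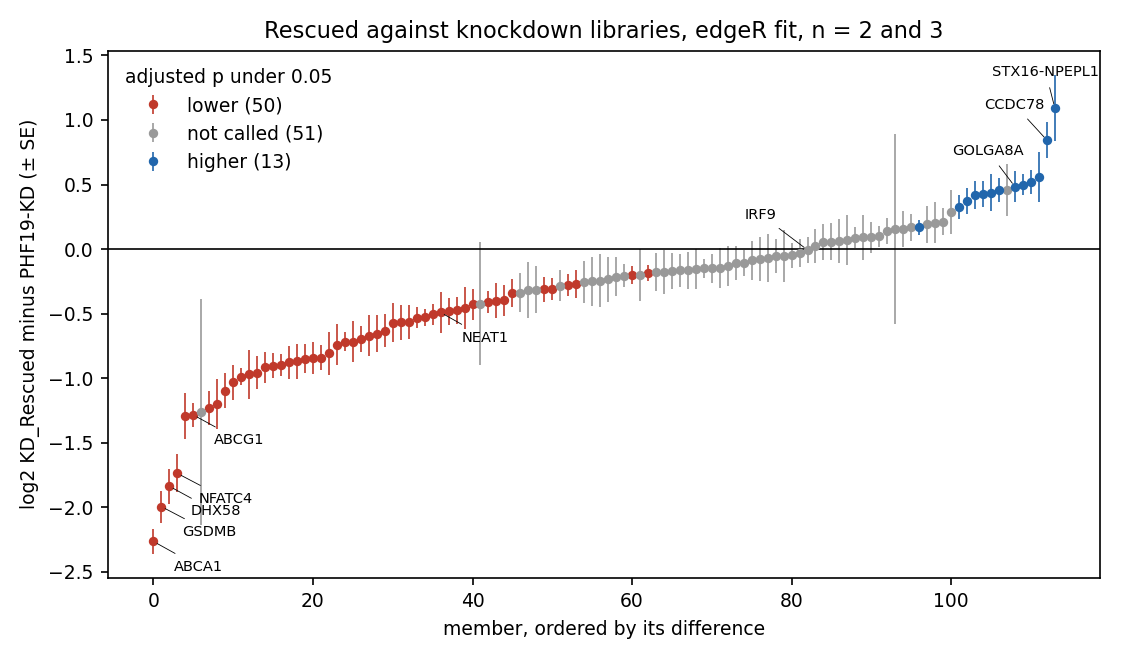
Each point is 1 member, ordered by its log2 difference between KD_Rescued (n = 2) and PHF19-KD (n = 3) with its standard error from the edgeR fit; red points fell, blue points rose and grey points did not pass an adjusted p of 0.05. The 50 falls reach -2.26 (ABCA1) and the 13 rises reach 1.09 (STX16-NPEPL1).

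Counts by role are a description, since the roles were drawn up after the members had been found. They stand beside shares of 43.9% lower and 11.4% higher over all members. Over all genes the shares were 29.5% and 33.9%. Members named as long noncoding RNAs numbered 9, of which 6 fell between PHF19-KD and KD_Rescued (66.7%), none rose and 3 did not pass. These 9 kept a median of 71.0% of their rise. NEAT1, the scaffold RNA of nuclear paraspeckles, had 276, 198 and 259 CPM in shEV, 973, 732 and 843 CPM in PHF19-KD, and 603 and 612 CPM in KD_Rescued. Both rescued libraries lay below every knockdown library, and replicate 2 was the lowest of its group in both shEV and PHF19-KD. The difference from PHF19-KD was -0.49 ± 0.16 (SE, adjusted p = 0.0298, edgeR), and it did not pass without shEV replicate 3 (adjusted p = 0.0870), PHF19-KD replicate 1 (0.0548) or 3 (0.0563), or KD_Rescued replicate 1 (0.128) or 2 (0.105), or with no filter on low counts (0.132). MALAT1, an RNA of nuclear speckles encoded beside NEAT1 (52.15 kb apart in GENCODE 29), had 94.7, 77.7 and 103 CPM in shEV, 360, 300 and 319 CPM in PHF19-KD, and 230 and 239 CPM in KD_Rescued. It fell by 0.48 ± 0.11 on the log2 scale (adjusted p = 0.00315, edgeR), and both KD_Rescued values lay below every PHF19-KD value. With the library of disagreeing labels as PHF19-KD, its difference was -0.32 and did not pass (adjusted p = 0.454, edgeR). MIAT, another nuclear RNA, had 117, 84.1 and 108 CPM in shEV, 547, 397 and 467 CPM in PHF19-KD, and 336 and 353 CPM in KD_Rescued. Its difference of -0.45 ± 0.16 (adjusted p = 0.0455) lost the call without shEV replicate 3 (0.111), PHF19-KD replicate 1 (0.0835) or 3 (0.0812), or KD_Rescued replicate 1 (0.188) or 2 (0.121), with no filter (0.183) and with replicate number as a block (0.0520). MATN1-AS1 fell by 0.87 (adjusted p = 0.000112), with 43.3% of its rise left, the least of the 9. SLC25A25-AS1 fell by 0.27 (adjusted p = 0.0456), a call lost without PHF19-KD replicate 1 (0.170) or 2 (0.0591) or KD_Rescued replicate 1 (0.151) or 2 (0.156), in DESeq2 (0.0894) and with no filter (0.0918). MIR600HG fell by 0.31 (adjusted p = 0.0144), a call lost without PHF19-KD replicate 2 (0.0618) or KD_Rescued replicate 1 (0.104) or 2 (0.0503). LINC00528 (-0.11), LINC01355 (-0.32) and LINC01125 (-0.05) did not pass; GENCODE 29 lists LINC01125 as a protein-coding gene under a later symbol, and it is counted as coding in the comparison of gene structure. Mitochondrial RNA, whose share is given above, was also highest in PHF19-KD, and its part in these values was not tested.

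CCNL2, a cyclin of the splicing-linked kinase group, and LUC7L, related to a U1 snRNP factor, were the 2 splicing-linked members, and both rose further in KD_Rescued. CCNL2 had 52.5, 38.5 and 50.5 CPM in shEV, 126, 109 and 117 CPM in PHF19-KD, and 155 and 159 CPM in KD_Rescued. Its rescued values exceeded every knockdown value, by 0.42 ± 0.11 on the log2 scale (adjusted p = 0.00709), and with upper-quartile scaling the difference was 0.26 (adjusted p = 0.0597). LUC7L had 16.6, 12.6 and 15.8 CPM in shEV, 40.1, 33.3 and 38.3 CPM in PHF19-KD, and 47.2 and 49.7 CPM in KD_Rescued. Its rise of 0.37 ± 0.10 (adjusted p = 0.00618) was lost with that scaling (0.0727) and without KD_Rescued replicate 2 (0.0544).

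Other rises between PHF19-KD and KD_Rescued were spread over roles. GOLGA8A and GOLGA8B, golgin copies of near-identical sequence lying 87.74 kb apart, both had reads divided between genes in all 9 libraries, so their split is uncertain. GOLGA8A had 40.7, 35.4 and 37.5 CPM in shEV, 143, 101 and 120 CPM in PHF19-KD, and 167 and 174 CPM in KD_Rescued. It rose by 0.48 ± 0.12 (adjusted p = 0.00709). GOLGA8B went from 82.4 to 91.2 CPM in PHF19-KD to 123 and 118 CPM in KD_Rescued, a difference of 0.46 ± 0.20 that did not pass (adjusted p = 0.0853) and that passed in limma (voom, 0.0216) and without shEV replicate 2 (1.83e-05). SPPL2B, an intramembrane protease, had 58.8, 59.1 and 46.5 CPM in shEV, 126, 128 and 121 CPM in PHF19-KD, and 173 and 171 CPM in KD_Rescued. RHPN1 had 12, 12.2 and 8.66 CPM in shEV, 57.3, 57 and 55.3 CPM in PHF19-KD, and 80.8 and 82.4 CPM in KD_Rescued. For both genes the KD_Rescued values exceeded every PHF19-KD value, by 0.46 and 0.52 (adjusted p = 0.00135 and 0.000501, edgeR). With the library of disagreeing labels as KD_Rescued, neither SPPL2B nor RHPN1 passed (adjusted p = 0.573 and 0.668, edgeR). The small GTPase gene RAB26 rose by 0.43 (adjusted p = 0.00302), a call lost with that library as KD_Rescued (0.0765, edgeR).

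Among 5 microtubule members, 2 rose (40%, all members 11.4%, all genes 33.9%), 1 fell and 2 did not pass. KIFC2, a minus-end kinesin motor, had 13.9, 11.5 and 12 CPM in shEV, 37.8, 39.0 and 35.3 CPM in PHF19-KD, and 53.1 and 53.1 CPM in KD_Rescued, and rose by 0.50 ± 0.08 (adjusted p = 0.000145). CCDC78, a centriole amplification gene, had 2.0 to 2.86 CPM in shEV, 6.72 to 7.07 CPM in PHF19-KD and 11.5 and 13.2 CPM in KD_Rescued, and rose by 0.84 ± 0.14 from PHF19-KD to KD_Rescued (adjusted p = 0.000227). TTLL3, a tubulin glycine ligase, went the other way, from 9.91 to 14.9 CPM in PHF19-KD to 5.56 and 5.0 CPM in KD_Rescued, a fall of 1.29 ± 0.18 (adjusted p = 4.3e-05). TUBGCP6, a subunit of the gamma-tubulin ring complex, and KIFC3, another kinesin, stood at 95.0% and 106% of their rise, with differences of -0.05 and 0.06 that did not pass.

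Interferon, cytokine and other innate immune genes made up 9 members. Of these, 6 fell (66.7%, all members 43.9%, all genes 29.5%), none rose and 3 did not pass, and their median kept share was 47.8%. IRF9, a DNA-binding factor of interferon signalling, had 6.39, 7.42 and 5.92 CPM in shEV, 17.7, 18.7 and 17.7 CPM in PHF19-KD, and 18.1 and 18.0 CPM in KD_Rescued. The rescued and knockdown values overlapped, and the difference was -0.01 ± 0.10 (adjusted p = 0.958). IFI44, an interferon-induced protein, had 0.484, 0.638 and 0.766 CPM in shEV, 5.0, 4.99 and 5.15 CPM in PHF19-KD, and 3.98 and 4.63 CPM in KD_Rescued. Its rescued values lay just below the knockdown values, and the difference of -0.24 ± 0.17 did not pass (adjusted p = 0.255). IL32, a proinflammatory cytokine, had 1.10, 1.13 and 1.24 CPM in shEV, 4.62, 5.41 and 5.15 CPM in PHF19-KD, and 4.74 and 4.84 CPM in KD_Rescued, and its groups overlapped after the control (adjusted p = 0.634).

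The other 6 immune members returned part of the way. DHX58, which encodes the RNA sensor LGP2, had 1.72, 1.52 and 1.83 CPM in shEV, 14.3, 16.5 and 14.2 CPM in PHF19-KD, and 3.81 and 4.63 CPM in KD_Rescued. It fell by 1.84 ± 0.14 (adjusted p = 2.08e-07) and kept 19.0% of its rise. GSDMB, a member of the pore-forming gasdermin family, had 10.2, 6.82 and 9.07 CPM in shEV, 94.6, 78.1 and 79.1 CPM in PHF19-KD, and 21.3 and 21.0 CPM in KD_Rescued. It fell by 1.99 ± 0.12 (adjusted p = 1.79e-07), and its lowest rescued value was 2.07 times its highest control value. MX2, an interferon-induced GTPase, had 1.15, 1.18 and 1.14 CPM in shEV, 10.2, 10.2 and 10.4 CPM in PHF19-KD, and 5.57 and 5.35 CPM in KD_Rescued, with 47.2% of its rise left (log2 -0.92 ± 0.12, adjusted p = 2.84e-05). TRAF1, an adaptor of TNF receptors, had 42.4 to 53.1 CPM in PHF19-KD and 24.7 and 26.6 CPM in KD_Rescued, against 4.86 to 6.02 CPM in shEV. The chemokine CCL5 had 10.6, 10.1 and 10.3 CPM in shEV, 35.6, 36.1 and 34.4 CPM in PHF19-KD, and 23.4 and 26.6 CPM in KD_Rescued. CCL5 and TRAF1 fell by 0.51 and 0.90 (adjusted p = 0.000123 and 6.41e-06), and IL11RA, the receptor for interleukin 11, by 0.90 (1.76e-06). Fewer cells making a transcript and less transcript per cell cannot be told apart in these bulk libraries.

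**Figure D3:**
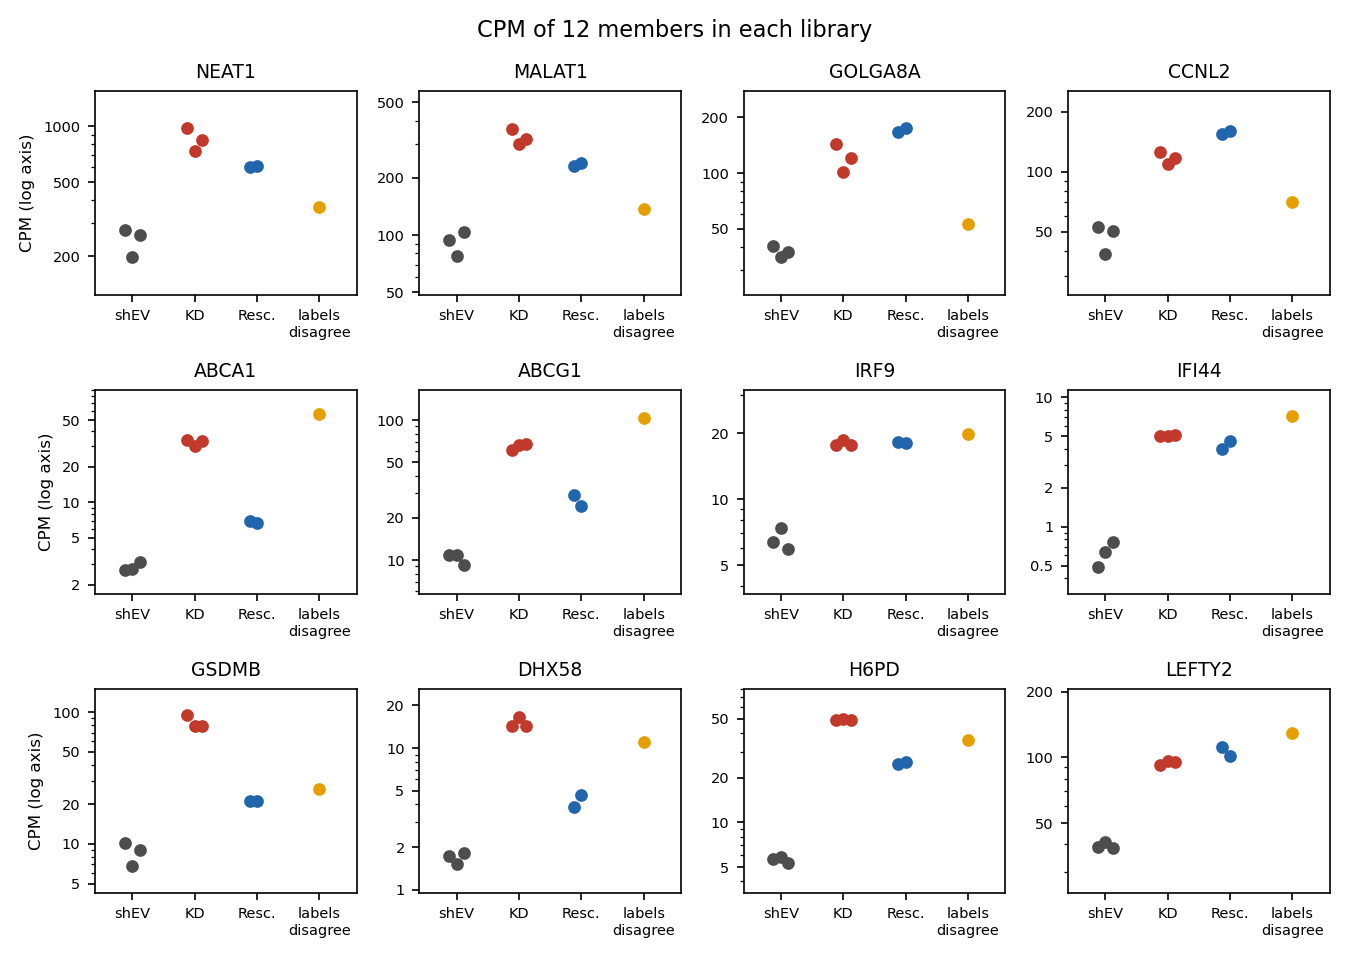
CPM of 12 members (log axis) in each shEV, PHF19-KD (KD) and KD_Rescued (Resc.) library and in the library with disagreeing labels, 1 point per library. ABCA1, GSDMB and DHX58 dropped steeply from knockdown to rescued, IRF9 overlapped between them, and GOLGA8A and CCNL2 rose.

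The wider interferon response gives these members a setting. Of 67 interferon-stimulated genes in a fixed list, 66 were tested, and 4 of them are members (IFI44, MX2, DHX58 and IRF9). The choice fixed the members' direction against shEV, so they are set aside in every count of a gene list against shEV that follows. Of the 62 others, 47 rose (75.8%, all genes 34.9%) and 7 fell (11.3%, all genes 34.2%) in PHF19-KD against shEV (median log2 0.77, all genes 0.03), with the lowest adjusted p for MX1 (2.34 ± 0.06, adjusted p = 2.92e-11) and IFI6 (3.95 ± 0.11, adjusted p = 3.7e-11), while LY6E (-1.99) and APOL6 (-0.84) fell. MX1 and IFI6 met the thresholds and were set aside by symbol. In KD_Rescued 26 of the 62 rose (41.9%, all genes 20.7%) and 9 fell (14.5%, all genes 19.1%) against shEV (median 0.19, all genes 0.02), with MX1 (2.04) and XAF1 (2.62) higher and LY6E (-0.80) and APOL3 (-0.29) lower. Between PHF19-KD and KD_Rescued 42 of the 62 fell (67.7%, all genes 29.5%) and 9 rose. Several that are not members stood nearer the control in KD_Rescued than in PHF19-KD, though still above it. Examples are OASL (2.95 in PHF19-KD and 0.59 in KD_Rescued against shEV) and TRIM22 (3.15 and 0.41), which were picked here after their values were seen. Of 50 tested chemokine, cytokine and receptor genes CCL5, IL11RA and IL32 are members. Of the other 47, 20 rose (42.6%) and 17 fell (36.2%) in PHF19-KD (median 0.09), and 8 rose (17%) and 9 fell (19.1%) in KD_Rescued (median -0.10), where the shares of all genes were 20.7 and 19.1%. The KD_Rescued counts were 4 and 5 without KD_Rescued replicate 1 and the falls 5 without replicate 2. Among the falls were the chemokines CCL3L3 (-2.36 and -0.96) and CCL3 (-1.70 and -0.63). Of 29 tested NF-kB genes beside the member TRAF1, 15 rose (51.7%) and 5 fell (17.2%) in PHF19-KD (median 0.25) and 9 rose (31.0%) and 5 fell (17.2%) in KD_Rescued (median 0.05), with TNFAIP2 (3.61 and 1.19) among the rises. The KD_Rescued rises were 4 without KD_Rescued replicate 1, and the falls were 3 without either KD_Rescued library and 8 without shEV replicate 3.

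Lipid genes made up 6 members, of which 5 fell (83.3%, all members 43.9%, all genes 29.5%) and 1 did not pass. ABCA1, which exports cholesterol to lipid-poor apolipoproteins, had 2.68, 2.70 and 3.12 CPM in shEV, 34.0, 30.2 and 33.1 CPM in PHF19-KD, and 6.89 and 6.65 CPM in KD_Rescued. It fell by 2.26 ± 0.10 (adjusted p = 1.38e-09), the steepest fall among the 114 members, and kept 13.3% of its rise. ABCG1, which exports cholesterol to mature lipoproteins, had 10.9, 10.8 and 9.19 CPM in shEV, 61.1, 66.6 and 66.9 CPM in PHF19-KD, and 29.1 and 24.4 CPM in KD_Rescued. It fell by 1.28 ± 0.09 (adjusted p = 1.58e-07, edgeR), and for both genes every KD_Rescued value lay below every PHF19-KD value. With the library of disagreeing labels as KD_Rescued, the differences of ABCA1 and ABCG1 were -0.57 and -0.38. Neither passed there (adjusted p = 0.548 and 0.537, edgeR). LCAT and SOAT2, which esterify cholesterol in plasma and in cells, had 10.7 to 12.5 CPM and 9.73 to 10.9 CPM in PHF19-KD and fell by 1.03 and 0.96 (adjusted p = 2.8e-05 and 4.11e-05). CPT1B, which moves fatty acids into mitochondria, fell by 0.84 (adjusted p = 8.82e-05). ABCA7, a further transporter of the same family as ABCA1, had 31.6, 29.9 and 23.0 CPM in shEV, 72.4, 72.7 and 70.6 CPM in PHF19-KD, and 82.6 and 84.6 CPM in KD_Rescued, and its difference of 0.21 ± 0.10 did not pass (adjusted p = 0.100) but passed with no filter (0.000780) and without shEV replicate 3 (0.000347).

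Ligands, receptors and surface genes made up 10 members, of which 8 fell (80%, all members 43.9%, all genes 29.5%), 1 rose and 1 did not pass. PECAM1, an adhesion protein of endothelial and blood cells, had 13.6, 12.9 and 13.8 CPM in shEV, 41.2, 39.5 and 39.2 CPM in PHF19-KD, and 28 and 27.7 CPM in KD_Rescued, and fell by 0.53 ± 0.06 (adjusted p = 1.67e-05). MST1, the ligand of the RON receptor, had 2.05, 1.56 and 1.94 CPM in shEV, 18.6, 17.2 and 18.0 CPM in PHF19-KD, and 9.22 and 10.8 CPM in KD_Rescued. It fell by 0.85 ± 0.11 (adjusted p = 3.23e-05), and since its pseudogene MST1P2 is also a member (-1.20) and reads of both were divided in all 9 libraries, how their reads split is uncertain. EPHA10, an Eph receptor with an inactive kinase, fell by 0.43 (adjusted p = 0.00842), and its call was lost without KD_Rescued replicate 1 (0.0810). GABBR1, a subunit of the GABA-B receptor, had 4.71 to 5.80 CPM in shEV, 24.9 to 28.2 CPM in PHF19-KD, and 15 and 14.3 CPM in KD_Rescued, and fell by 0.84 (adjusted p = 8.92e-06). LEFTY2, a secreted inhibitor of Nodal, had 38.7, 40.9 and 38.4 CPM in shEV, 91.8, 96.1 and 94.9 CPM in PHF19-KD, and 112 and 101 CPM in KD_Rescued. Its rise of 0.17 ± 0.06 (adjusted p = 0.0278) was lost with upper-quartile scaling, which left a difference of 0.014 (0.847), with the filter at 5 CPM (0.176), without PHF19-KD replicate 1 (0.0931) or 3 (0.0684) or KD_Rescued replicate 1 (0.277), in DESeq2 (0.159) and with replicate number as a block (0.0555).

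Of 42 tested genes for semaphorins, ephrins and other guidance cues EPHA10 was the member. Of the other 41, 28 rose (68.3%, all genes 34.9%) and 6 fell (14.6%) in PHF19-KD (median 0.99) and 13 rose (31.7%, all genes 20.7%) and 5 fell (12.2%) in KD_Rescued (median 0.20) against shEV. SEMA4D rose in both (1.04 and 0.70), as did SLIT3 (4.29 and 2.47), and ROBO1 fell by 0.37 in KD_Rescued. Of 44 tested integrin, selectin and adhesion genes beside the member PECAM1, 24 rose (54.5%) and 11 fell (25%) in PHF19-KD (median 0.27) and 11 rose (25%, all genes 20.7%) and 13 fell (29.5%, all genes 19.1%) in KD_Rescued (median -0.03). The KD_Rescued rises were 6 and 5 without KD_Rescued replicate 1 and 2, and the falls were 8 without replicate 2. CEACAM1 rose by 3.02 in PHF19-KD and fell by 1.22 in KD_Rescued, and SELPLG rose by 0.32 and fell by 0.52.

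Transcription, chromatin and DNA repair genes made up 9 members, of which 4 fell, none rose and 5 did not pass. The falls were 44.4%, near the share of all members (43.9%), where all genes had 29.5%. NFATC4, a calcium-regulated transcription factor, had 0.748, 0.834 and 0.766 CPM in shEV, 13, 11.3 and 12.3 CPM in PHF19-KD, and 4.14 and 3.20 CPM in KD_Rescued, and fell by 1.74 ± 0.15 (adjusted p = 6.58e-07). SMARCD3, a subunit of SWI/SNF remodelling complexes, had 1.54, 1.42 and 1.66 CPM in shEV, 9.95, 10.2 and 9.11 CPM in PHF19-KD, and 7.91 and 7.01 CPM in KD_Rescued. Its fall of 0.40 ± 0.12 (adjusted p = 0.0125) did not pass in DESeq2 (0.0784), with no filter (0.0625) or without KD_Rescued replicate 2 (0.127). L3MBTL1, a chromatin compaction protein with malignant brain tumour repeats, had 10.8, 10.7 and 10.5 CPM in PHF19-KD and 12.1 and 10.8 CPM in KD_Rescued, and the difference of 0.09 did not pass (adjusted p = 0.524). NEIL1, a DNA glycosylase, fell by 0.88 (adjusted p = 6.04e-05), and it overlaps the member MAN2C1 on the opposite strand, so reads in the overlap cannot be told apart without strand. HSF4 (0.14), MZF1 (-0.15), ZNF276 (-0.11) and UVSSA (0.10) did not pass, although MZF1 and ZNF276 passed as falls with upper-quartile scaling (adjusted p = 0.00375 and 0.0326), and MZF1 also with the filter at 5 CPM (0.0186) and without shEV replicate 3 (0.0462). Members are 0.687% of all genes tested, and at that share 0 members among 16 PRC2 genes or 41 developmental transcription factors of the kind Polycomb complexes repress says nothing about the members. Of those 41, 12 rose (29.3%) and 12 fell (29.3%) in PHF19-KD (median -0.18), and 9 rose (22%) and 9 fell (22%) in KD_Rescued (median 0.06), shares near those of all genes, with TBX18 and HOXB3 (6.18 and 1.38) higher and SOX2 and BARX2 (-1.63 and -0.74) lower in PHF19-KD. The KD_Rescued counts were 4 and 3 without KD_Rescued replicate 1 and 5 and 5 without replicate 2, and the falls were 5 without shEV replicate 1. Of 16 tested PRC2 genes, 4 rose and 11 fell in PHF19-KD (median -0.58), with EZH1 (0.91) higher and EZH2 (-2.02) lower, and 4 rose and 7 fell in KD_Rescued (median -0.13).

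The 9 other enzymes kept a median of 87.1% of their rise and the 10 vesicle and Golgi members a median of 82.4%. H6PD, which supplies NADPH inside the endoplasmic reticulum, had 5.63, 5.81 and 5.36 CPM in shEV, 49.3, 50.1 and 48.8 CPM in PHF19-KD, and 24.6 and 25.5 CPM in KD_Rescued. It fell by 0.99 ± 0.07 (adjusted p = 9.72e-08, edgeR), with replicates closer together than the gap between KD_Rescued and PHF19-KD. ACCS fell by 1.10 (adjusted p = 1.81e-05). The other enzymes included AMT, of glycine cleavage, which fell by 0.66, and CSAD, of taurine synthesis, which at -0.15 did not pass but did with upper-quartile scaling (-0.30, adjusted p = 0.0280). Of 10 vesicle and Golgi members 5 fell (50%, all members 43.9%, all genes 29.5%), 2 rose and 3 did not pass. ATG16L2, a relative of an autophagy factor, had 78.4 to 86.2 CPM in PHF19-KD and 56.2 and 57.3 CPM in KD_Rescued (log2 -0.53, adjusted p = 0.00013). ST5, a regulator of Rab GTPases, fell by 0.72 (adjusted p = 2.89e-06), and RAB15, an endosomal Rab, by 0.18 (adjusted p = 0.0212), a call lost without PHF19-KD replicate 1 (0.0750) or KD_Rescued replicate 1 (0.251) and with no filter (0.100). Of 16 other coding members 6 fell (37.5%, all members 43.9%, all genes 29.5%), 1 rose and 9 did not pass. DFNB31 (whirlin), a scaffold protein of hair cells, had 56.8, 53.1 and 44.7 CPM in shEV, 182, 175 and 173 CPM in PHF19-KD, and 131 and 136 CPM in KD_Rescued, and fell by 0.41 ± 0.09 (adjusted p = 0.0016). MAPK8IP3, a scaffold of JNK signalling and axonal transport, had 35.4, 27.9 and 23.0 CPM in shEV, 88.8, 92.0 and 89.7 CPM in PHF19-KD, and 77.4 and 83.4 CPM in KD_Rescued, and did not pass (adjusted p = 0.313).

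Pseudogene and readthrough members numbered 10, and all 10 had reads divided between genes. Of these, 3 rose (30%, all members 11.4%, all genes 33.9%), 1 fell and 6 did not pass. STX16-NPEPL1, a readthrough of 2 neighbouring genes, had 1.43, 0.857 and 0.437 CPM in shEV, 4.04, 4.57 and 5.77 CPM in PHF19-KD, and 9.03 and 11.6 CPM in KD_Rescued. It rose by 1.09 ± 0.26 (adjusted p = 0.00347), the largest of the 13 rises, although its single-gene partners share its sequence. AHSA2 and JMJD7-PLA2G4B rose by 0.33 and 0.44 (adjusted p = 0.00985 and 0.0173), and both calls were lost with upper-quartile scaling (0.134 and 0.0936) and without KD_Rescued replicate 2 (0.0618 and 0.162), the second also without PHF19-KD replicate 2 (0.0783) and in DESeq2 (0.0790). Another 19 members carry only clone-based names, and 14 of them did not pass, 4 fell (21.1%, all members 43.9%, all genes 29.5%) and 1 rose. CTD-2328D6.1 had 10.2, 112 and 29.2 CPM in shEV, 460, 700 and 695 CPM in PHF19-KD, and 270 and 249 CPM in KD_Rescued. The difference of -1.26 ± 0.88 between KD_Rescued and PHF19-KD did not pass in edgeR (adjusted p = 0.263) and passed in limma (voom, 0.045). RP11-514P8.8 ranged from 0 to 1.42 CPM in shEV and from 4.75 to 23.9 CPM in PHF19-KD. CTD-2020K17.1 rose by 0.56 (adjusted p = 0.0275), a call lost without PHF19-KD replicate 2 (0.100) or 3 (0.0811) or KD_Rescued replicate 1 (0.117) or 2 (0.0811), with upper-quartile scaling (0.0892) and in DESeq2 (0.0630).

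The members differed in their gene structure from other genes at the same CPM floor, a comparison chosen after the members were known and described with no test. In GENCODE 29 all 95 members with gene names matched, and 83.2% of these were protein coding, against 95.7% of the other named genes. Among coding genes, 79.7% of members had at least 1 annotated transcript that retains an intron, against 61.0% of the others, with a median of 3 such transcripts against 1. Median GC content of the longest transcript was 57.5% for coding members and 47.5% for other coding genes, and the median gene span was 21.0 kb against 34.4 kb. Of the 79 coding members, 37 lay in the highest of 5 equal groups of tested coding genes by GC (57.9 to 73.7%), 27 in the next, and 11, 2 and 2 in the lower groups. The same order ran through all tested coding genes, whose median log2 difference from shEV in these groups, in order of rising GC, was -0.24, -0.19, -0.08, 0.05 and 0.24 in PHF19-KD and -0.10, -0.07, -0.05, 0.04 and 0.17 in KD_Rescued. From PHF19-KD to KD_Rescued the medians, in the same order, were 0.14, 0.13, 0.07, 0.04 and 0.01. The part of GC content in the members' rises and falls was not tested. Coding members with 3 or more retained-intron transcripts were 1.43% of such genes, against 0.304% of genes with none. Over all tested coding genes with 0, 1 to 2 and 3 or more, the PHF19-KD medians against shEV were -0.05, -0.08 and -0.04. Those of KD_Rescued were -0.02, -0.04 and 0.03, with no steady order in either group. Of the 95 named members 51 (53.7%) overlap a gene on the other strand, a share that was not computed for other genes. Reads were divided between genes in at least 5 libraries for 65 of all 114 members (57.0%), against 45.7% of other genes at the floor.

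**Figure D4:**
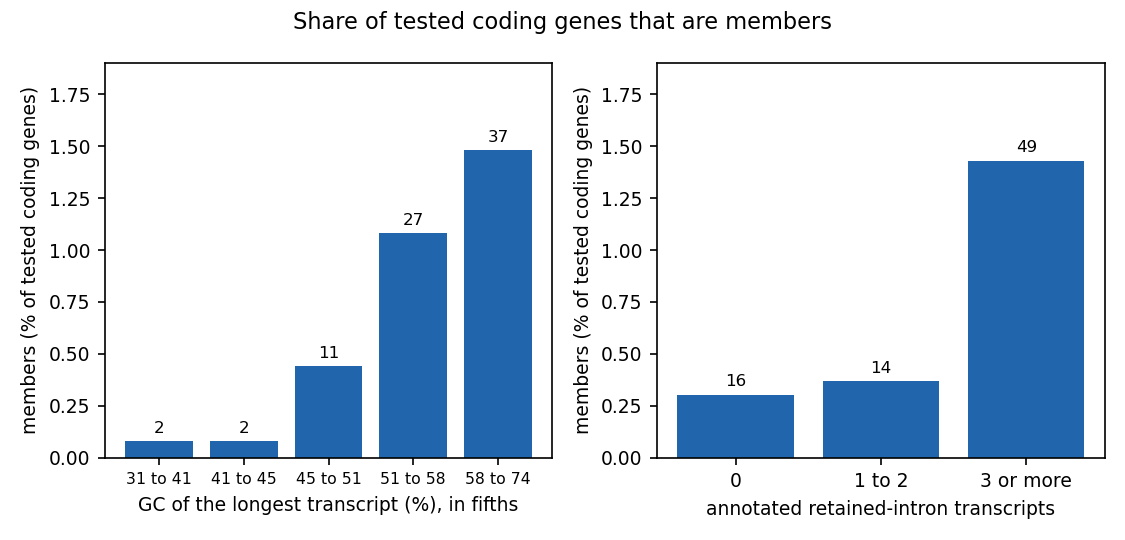
Bars give the share of tested coding genes that are members, in 5 equal groups by longest-transcript GC content (left) and by number of annotated retained-intron transcripts (right), with the number of members above each bar. Members are most frequent in the 2 highest GC groups (27 and 37 members) and among genes with 3 or more such transcripts (49 members).

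The library with disagreeing labels had no part in the choice of members or in the fit of the 8 libraries, although the shEV values it is set against are those the choice used. That choice held the highest shEV value low for members but not for all genes, so their shares are not on equal terms. At 3 CPM or more in that library, 47 of 104 members (45.2%) were at 2 or more times the highest shEV value, against 5.68% of all genes at that level there. All 9 immune members passed that mark, with a median of 4.37 times the highest control, as did 4 of 6 lipid members, with ABCA1 at 18.2 and ABCG1 at 9.50 times. Neither splicing-linked member passed it, with CCNL2 at 1.34 and LUC7L at 1.31 times, and NEAT1 and MALAT1 stood at 1.33 times each. MIAT stood at 2.29 times, and 3 of the 9 members named as long noncoding RNAs passed the mark. Members that fell between PHF19-KD and KD_Rescued had a median of 2.44 times the highest control there (39 coding members), and those that rose had 1.34 times (11 coding members). In PHF19-KD the median fold over shEV of the same coding members was 5.64 for falls and 2.97 for rises. It was 8.02 for the immune members and 3.64 for all members. The library with disagreeing labels is 1 library with no replicate, and its labels do not settle what its cells carried. Its column name starts with MMCL, as do those of the PHF19-KD libraries, but carries another number. The KD_Rescued names start with MMRESWT.

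**Figure D5:**
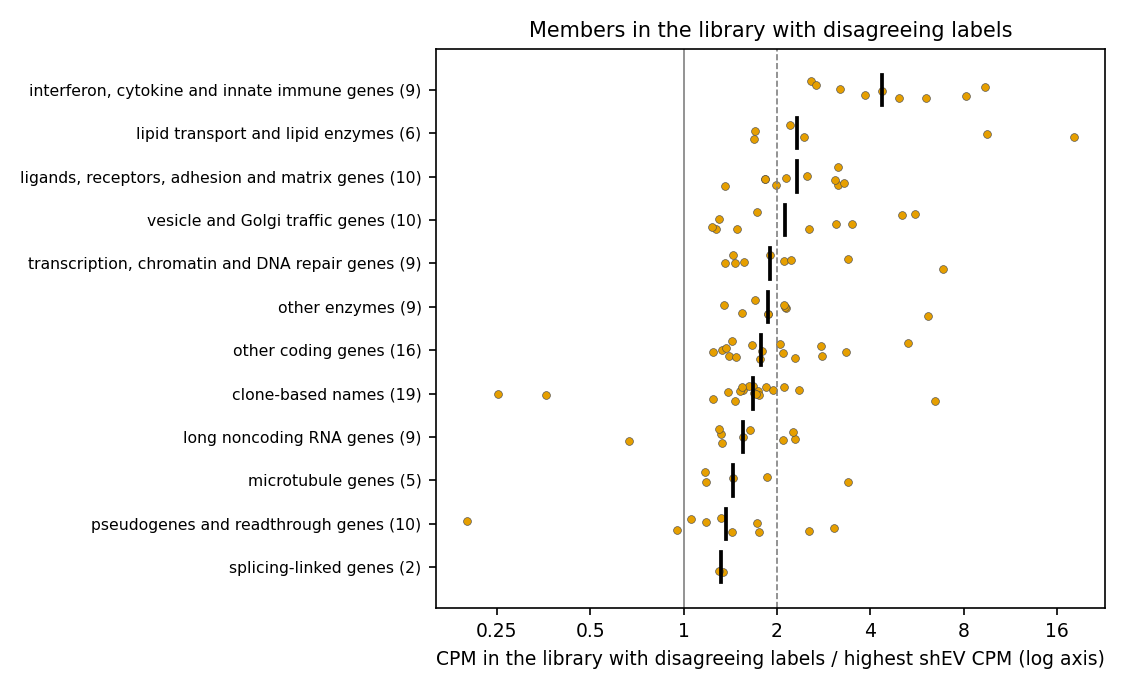
Each point is 1 member, as its CPM in the library with disagreeing labels over its highest shEV CPM (log axis), by role group with the number of members in brackets and black lines at medians; the solid line is at 1, the dashed line at 2, and a member at 0 is drawn at 0.2. Immune genes lie farthest right (median 4.37) and the 2 splicing-linked genes lie near the control (1.32).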

How the data were processed

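RNA-seq of MM1S cells was read from 1 gene table of estimated counts, deposited by the authors for 9 libraries. The submitters' processing notes name CASAVA, RSEM and hg19, the deposited table is named for salmon, and which program made the counts, its annotation and its use of strand are unstated in the labels and notes. Estimated counts need not be whole, since reads shared between genes are divided; a count more than 0.01 from a whole number was taken as divided. Groups came from the labels, and 1 library whose labels disagree entered no group. CPM was each count over its column total, times 1000000. The fit used rounded counts of 8 libraries with 3 group means in edgeR 4.0.16 (R 4.3.3; filterByExpr, TMM, robust quasi-likelihood, Benjamini-Hochberg over 16600 genes, threshold 0.05), tested on simulated data. For members, only KD_Rescued against PHF19-KD is given with a test, and counts of gene lists against shEV leave the members out. The members, the gene lists and the grouping of members by role were chosen with earlier results of these data known, and the roles after the members had been found.

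Members were named by rank: the 12 with the highest mean CPM, the 12 with the largest ratio of lowest to highest shEV value, the 6 largest called rises and falls between KD_Rescued and PHF19-KD, those in a gene list, and the 4 on each side of the fold threshold. From each list, non-members were named for the 2 called rises and 2 called falls with the lowest adjusted p. Other members named were picked after their values were seen. Alternatives were DESeq2 1.42.0, limma 3.58.1 (voom), upper-quartile scaling, other filters, no mitochondrially encoded genes, a replicate block, each library left out and the library with disagreeing labels added. Gene structure came from GENCODE 29, with genes matched by symbol and synonym and not by coordinates. Its coordinates gave the gene spans, the gaps between genes and the overlaps. Promoters came from RefSeq (GRCh38.p14). With 65.3% of named members matched to a promoter, a comparison of promoter GC content was void. CPM is not scaled by length, so levels of different genes were not compared. Depth ran from 10164100 to 23751400 counts per library.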

Additional observations from a re-analysis of the deposited data

Results flagged for a closer look

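The library whose title and hairpin label disagree belonged to no group and entered comparisons only in the alternative fits that count it as PHF19-KD or as KD_Rescued. In it 109 of the 114 members were above every shEV value, and 48 were at 2 or more times the highest shEV value. For 10 members its value was above all 8 other libraries. These were the Nodal inhibitor LEFTY2 (129 CPM), the Rab genes' member RAB15 (95.2 CPM), the sterol exporters ABCG1 (103 CPM) and ABCA1 (56.8 CPM), the Rab regulator ST5 (58.0 CPM) and the adhesion gene PECAM1 (43.3 CPM). The other 4 were immune genes: CCL5 (40.8 CPM), IRF9 (19.8 CPM), IFI44 (7.18 CPM) and IL32 (5.41 CPM). In the same library 85 members lay below every PHF19-KD and KD_Rescued library. PHF19 stood at 63.5 CPM there and mitochondrially encoded RNA at 5.56% of counts, and the part of either in these values was not tested.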

How the results depend on the processing

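Members higher in KD_Rescued than PHF19-KD numbered 13, with 9 to 15 when single libraries were left out, 7 with upper-quartile scaling, 5 with the library of disagreeing labels as PHF19-KD and 0 with it as KD_Rescued. Members lower numbered 50, with 39 to 52 when single libraries were left out and 25 with that library as PHF19-KD. Their median of -0.24 ran from -0.28 to -0.18 without single libraries, and was -0.39 with upper-quartile scaling and -0.43 with that library as KD_Rescued. With it as KD_Rescued, 3338 of all genes were higher and 2869 lower, against 5622 and 4904; without single libraries the counts were 4928 to 6004 and 4062 to 5318. The number of members, 114, became 358 at a fold of 1.5, 29 at a fold of 3, 175 at a minimum of 1 CPM, 57 at 10 CPM and 47 with that library required too, 118 to 145 without single libraries, 102 on TMM-scaled library sizes (all among the 114) and 130 without mitochondrially encoded genes in the totals. LEFTY2 turned to -0.021 with that library as PHF19-KD, and AHSA2 and JMJD7-PLA2G4B to -0.058 and -0.0032 with it as KD_Rescued; the cause was not tested. With replicate number as a block, 12 members were higher and 51 lower (median -0.25). Over all tested genes, deviations from the group means had correlations of -0.01 to 0.03 between same-numbered libraries. No pairing by number was seen there, and means of so few libraries cannot exclude it. Counts of called genes in the gene lists, members included, stayed within 1.5 times in 651 recomputations and moved further in 63. The fit with a filter at 5 CPM gives no value for 7 members, IFI44 among them. Depth limits the members near 3 CPM, which rest on few counts in shEV, and only 2 KD_Rescued libraries, in a lane of their own, limit every comparison with them.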
